A study of Homo sapiens with 12 samples.

Results

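The genes described here were 10 genes of the integrated stress response, ATF4, DDIT3, ASNS, CHAC1, TRIB3, SESN2, PSAT1, PHGDH, ATF3 and GDF15. They were chosen by symbol, as the entries of the count files that carry one of these names, and all 10 were found among 46350 named genes. RNA sequencing had been run on SKOV3, a human epithelial ovarian cancer cell line that the study treats as chemosensitive. It had also been run on SKOV3/DDP, a stable chemoresistant line that the study describes as developed from SKOV3. Each line was sequenced untreated and with paeonol (PAE), a small phenolic compound that the study examined against the kinase NEK6, giving 4 groups named SKOV3, SKOV3_PAE, SKOV3/DDP and SKOV3/DDP_PAE. Each group held 3 libraries of 1 cell line, numbered as replicates 1 to 3, and the labels give no dose, time or vehicle for PAE. No label states that replicates came from separate cultures, so the p-values below measure the spread between these libraries, which may be technical.

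In the integrated stress response, kinases that sense amino acid shortage, unfolded protein in the endoplasmic reticulum (ER), haem shortage or double-stranded RNA phosphorylate the translation initiation factor eIF2. General translation then falls, while the mRNA of the transcription factor ATF4 is translated more efficiently. ATF4 pairs with C/EBP proteins and switches on genes of amino acid uptake and synthesis, further transcription factors, feedback inhibitors and secreted stress signals, and the mRNA levels below do not measure eIF2 phosphorylation or ATF4 protein.

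ATF4 is known to bind DNA elements that join part of a C/EBP site to part of an ATF site, so the members' promoters were searched for the core TGATGNAA on both strands. RefSeq promoters on GRCh38.p14, each running from 250 bases before to 50 after an annotated start, were found for 10 of 10 members, in 16 windows. The core was present in promoters of 3 members, ASNS, CHAC1 and ATF3, against 4.46% of 27305 genes. The cyclic AMP response element core TGACGT, searched on both strands in the same windows, was in 0 of 10 members' promoters against 9.64% of genes, which says only that these letters are not in these windows. The stretches that hold the core are shown because they lie beside 3 genes whose values follow, with the core in capitals and read on the strand of the gene. A match of these letters is not a binding site, and binding of ATF4 was not measured. The ASNS stretch is chr7:97872429-97872516 on the minus strand, with the core starting 68 bases before the start. The CHAC1 stretch is chr15:40953222-40953309 on the plus strand, with the core in reverse orientation 209 bases before the start, and the ATF3 stretch is chr1:212565176-212565263 on the plus strand, with the core 191 bases before the start.
ASNS: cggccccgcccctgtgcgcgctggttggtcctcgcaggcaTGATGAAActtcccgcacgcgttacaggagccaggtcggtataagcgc
CHAC1: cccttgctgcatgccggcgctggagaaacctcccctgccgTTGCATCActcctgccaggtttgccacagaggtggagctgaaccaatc
ATF3: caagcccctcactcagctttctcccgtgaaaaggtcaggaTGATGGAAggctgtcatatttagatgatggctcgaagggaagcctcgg

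The 12 libraries held 14610008 to 18263479 counts each. The untreated SKOV3 libraries stood apart, with 17951 to 18240 genes counted against 21469 to 23194 in the other 9, and with scaling factors of the trimmed mean of M values (TMM) method of 0.644 to 0.674 against 0.975 to 1.23. Their log2 levels also rose with gene GC content relative to the mean of the 12 libraries (Spearman's rho across 15090 genes 0.676 to 0.683, against −0.541 to −0.329 in the other 9 libraries). Contrasts with untreated SKOV3 are therefore also given with that trend removed. Of 9 markers of carcinoma epithelium, keratins 8 and 18 were expressed in all 4 groups, while others differed between the lines. Summed CPM (counts scaled to a common library size) of 7 intestinal epithelial markers were 0.254 to 0.886 in SKOV3, 0.158 to 0.464 in SKOV3_PAE, 531 to 575 in SKOV3/DDP and 163 to 249 in SKOV3/DDP_PAE, and KRT7 averaged 3603 CPM in SKOV3 and 1.22 in SKOV3/DDP. Mean CPM in SKOV3 and SKOV3/DDP were 1.26 and 288 for EPCAM, 7.62 and 442 for CDH1, and 7.65 and 1348 for KRT19. They were 20.2 and 193 for CLDN4, but 47.5 and 3.95 for MUC1 and 306 and 96.4 for ERBB2. Of 7 ovarian and Mullerian markers, PAX8 averaged 29.7 and 4.12 CPM in SKOV3 and SKOV3/DDP, MUC16 2.08 and 0.389, and MSLN 149 and 388. WT1, ESR1, SOX17 and EMX2 averaged below 1 CPM in every group. In contrasts between the lines, drug response and these lineage markers cannot be told apart. Summed fibroblast markers were at most 30.1 CPM and endothelial markers at most 10.6. Summed leukocyte markers were 39.1 to 124 CPM, of which PTPRC and CD3E averaged below 1 CPM in every group, and in bulk RNA fewer cells of a type and less RNA per cell cannot be told apart.

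Untreated SKOV3/DDP replicate 2 carried more mRNA of every one of the 10 genes than replicates 1 and 3. It was at least 2-fold above both for 10 of 10 members, where 7.69% of the 17133 genes tested were, and its ratio to the mean of replicates 1 and 3 ran from 3.48 for ATF4 to 19.7 for SESN2, with a median of 7.65. Replicates 1 and 3 lay below all 3 SKOV3/DDP_PAE libraries for 10 of 10 members, while replicate 2 lay within the range of the PAE libraries for 4, above it for 4 and below it for 2. The shares of all genes in these positions were not counted, so these counts describe the members without a background. Replicates 1 and 3 are the untreated libraries left once the highest for every member is set aside, which favours their order by construction. The median SD of log2 CPM over the members was 1.64 in SKOV3/DDP, where the median over all genes was 0.265, and 0.168 in SKOV3, where it was 0.331. It was 0.824 in SKOV3_PAE against 0.318 for all genes, and 0.302 in SKOV3/DDP_PAE against 0.302. In mitochondrial share (8.66%, 9.57% and 11.2% in replicates 1, 2 and 3) and summed intestinal markers (575, 573 and 531 CPM in the same order) replicate 2 lay between the other 2 untreated SKOV3/DDP libraries. It lay outside them in other measures, with a TMM factor of 0.975 against 1.10 and 1.09, 22709 genes counted against 21720 and 21872, 16315411 counts against 15821726 and 15031362, and summed carcinoma epithelium markers of 13163 CPM against 10952 and 11378. The chi-square per degree of freedom between its counts and theirs was 89.7 and 82.4, against 15.0 between replicates 1 and 3. Large values were also found elsewhere. SKOV3/DDP_PAE replicate 3 was at 61.52 and 78.45 from replicates 1 and 2 of its group, which were at 19.79, and SKOV3_PAE pairs were at 59.11 to 63.77. The part of these measures in the result was not tested.

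**Figure D1:**
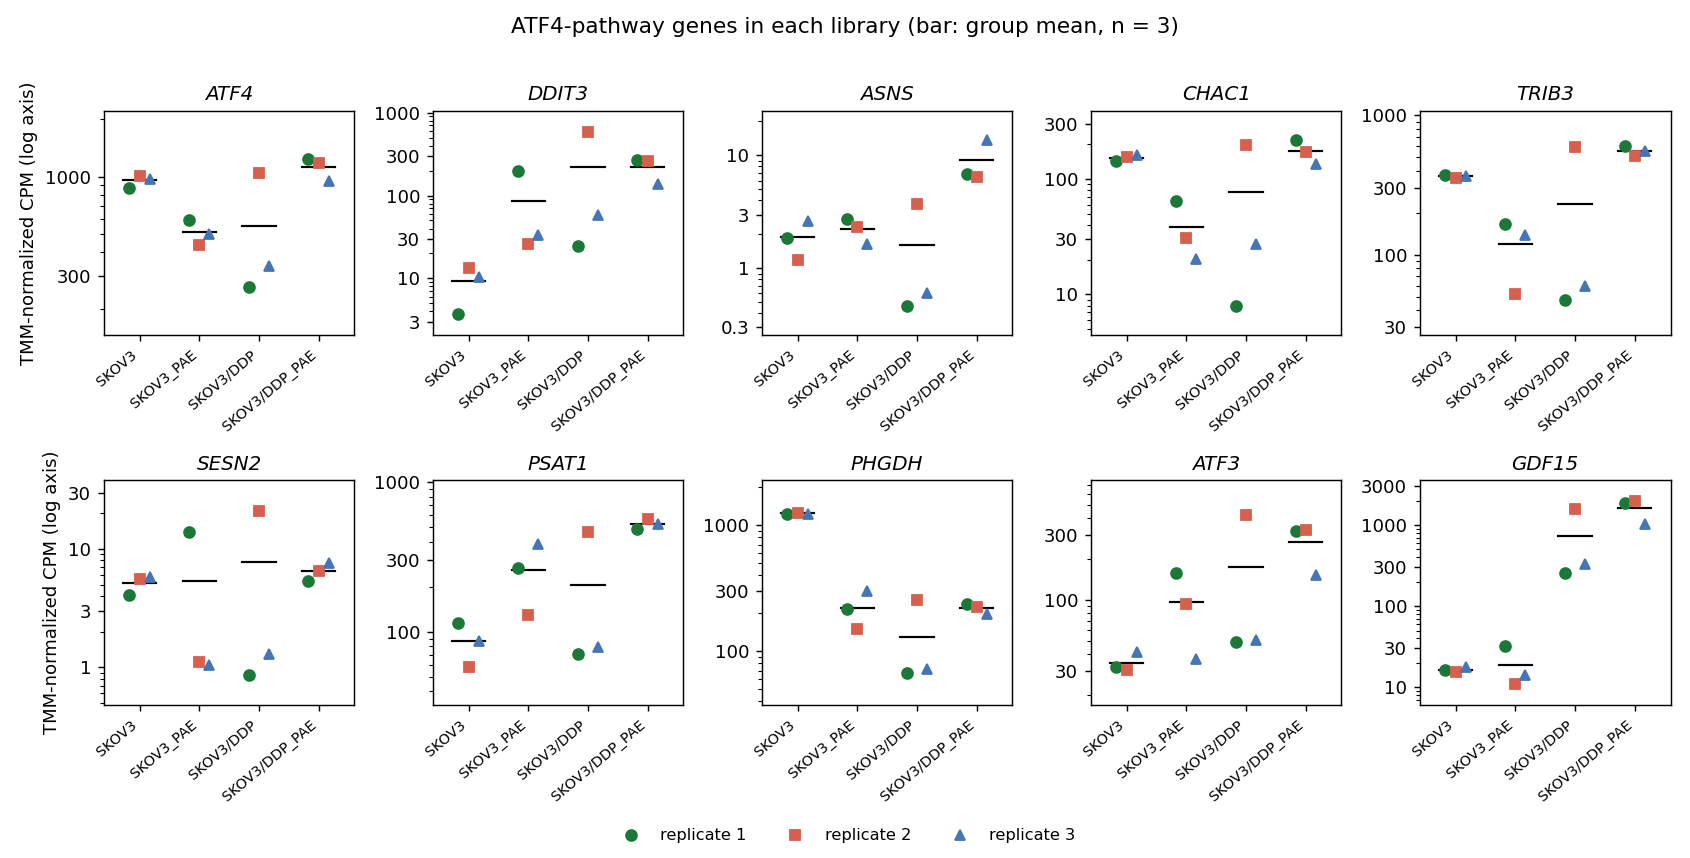
TMM-normalized CPM of the 10 genes in the 12 libraries, 1 panel per gene on a log axis, with 3 replicates per group as points and the group mean as a bar. In untreated SKOV3/DDP, replicate 2 sits at least 2-fold above replicates 1 and 3 in all 10 panels. Replicates 1 and 3 sit below all 3 SKOV3/DDP_PAE points, an order that was not counted over all genes.

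ATF4, the transcription factor of the pathway, was measured at 263, 1044 and 337 CPM in SKOV3/DDP replicates 1, 2 and 3. With PAE the same line gave 1234, 1172 and 952 CPM. Replicate 2 of the untreated line fell inside the PAE range, and the other 2 untreated libraries were well below it. In SKOV3, ATF4 was at 876, 1008 and 976 CPM untreated and at 588, 437 and 499 CPM with PAE, and these groups did not overlap. The region of ATF4 overlaps MIEF1 on the same strand, which averaged 17.3 CPM, and its processed copy ATF4P3 averaged 2.26 CPM.

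DDIT3 encodes CHOP, a transcription factor of the C/EBP family linked to cell death under prolonged stress. It was at 24.6, 586 and 57.9 CPM in the untreated SKOV3/DDP libraries and at 267, 263 and 138 CPM with PAE. Replicate 2 exceeded every PAE library of its line. In SKOV3 it rose from 3.72, 13.4 and 10.5 CPM to 199, 25.9 and 33.1 CPM with PAE, where replicate 1 lay far above the other 2 and the groups did not overlap. DDIT3 overlaps MARS1, a methionyl-tRNA synthetase gene on the opposite strand with a mean of 233 CPM, and whether counting used strand is not given in the sources used here, so DDIT3 values are uncertain to that extent.

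ATF3, a stress-induced transcription factor of the same bZIP class, was at 49.3, 419.9 and 51.2 CPM in untreated SKOV3/DDP. It was at 321, 326 and 153 CPM with PAE, so that untreated replicate 2 was the highest of these 6 libraries. SKOV3 libraries gave 32.4, 30.6 and 41.3 CPM untreated and 157, 93.9 and 37.2 CPM with PAE, overlapping through PAE replicate 3.

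TRIB3 encodes a pseudokinase that is induced by ATF4 and restrains it. Its level was 47.5, 589.7 and 59.4 CPM in untreated SKOV3/DDP and 601, 512 and 555 CPM with PAE. Again replicate 2 matched the PAE range and replicates 1 and 3 did not. In SKOV3 it was at 372, 354 and 370.1 CPM untreated and lower in every PAE library, at 167, 52.6 and 139 CPM.

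CHAC1, an enzyme that breaks down glutathione, was at 7.95, 197 and 27.5 CPM in untreated SKOV3/DDP and at 218, 172 and 134 CPM with PAE. SKOV3 gave 144, 155 and 162 CPM untreated and 64.7, 30.6 and 20.4 CPM with PAE. The SKOV3 groups did not overlap, and the SKOV3/DDP groups overlapped only through untreated replicate 2.

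Among enzymes of amino acid synthesis, ASNS (asparagine synthetase) was sparse, with 8 to 252 counts in a library. It was at 0.461, 3.72 and 0.611 CPM in untreated SKOV3/DDP and at 6.91, 6.38 and 13.8 CPM with PAE, and all PAE libraries were above all untreated ones, replicate 2 included. SKOV3 gave 1.86, 1.19 and 2.62 CPM untreated and 2.73, 2.33 and 1.63 CPM with PAE, which overlapped. ASNS shares its strand and locus with the readthrough gene CZ1P-ASNS, which averaged 1.84 CPM and reached 8.08 CPM in 1 library, so its counts could be split between the 2 genes.

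PSAT1 and PHGDH catalyse neighbouring steps of serine synthesis from a glycolytic intermediate. PSAT1 was at 70.7, 463 and 78.8 CPM in untreated SKOV3/DDP and at 485, 570.2 and 526 CPM with PAE, with replicate 2 just under the lowest PAE library. In SKOV3 it was at 115, 58.4 and 87.2 CPM untreated and at 267, 130.1 and 384 CPM with PAE, without overlap. PHGDH behaved differently between the lines. It was at 1223, 1262 and 1236 CPM in untreated SKOV3, the tightest group of any member, and at 216, 151 and 299.9 CPM with PAE. In SKOV3/DDP it was at 67.3, 253 and 72.2 CPM untreated and at 237, 224 and 199 CPM with PAE, so that the untreated SKOV3 libraries stood above the other 9.

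SESN2 encodes sestrin 2, a leucine sensor that restrains mTORC1, and was also sparse, at 15 to 335 counts in a library. It was at 0.864, 21.1 and 1.28 CPM in untreated SKOV3/DDP and at 5.34, 6.57 and 7.64 CPM with PAE, so replicate 2 was above all PAE libraries. In SKOV3 it was at 4.07, 5.53 and 5.84 CPM untreated, and with PAE at 13.9 CPM in replicate 1 and at 1.12 and 1.05 CPM in the others. By the SD of log2 CPM, SESN2 had the widest spread of the members in SKOV3/DDP (2.42) and in SKOV3_PAE (2.05).

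GDF15 encodes a secreted factor that reports cellular stress. It was at 259, 1588 and 334 CPM in untreated SKOV3/DDP and at 1865, 1976 and 1025 CPM with PAE, with replicate 2 inside the PAE range. SKOV3 libraries lay far lower, at 16.1, 15.6 and 17.7 CPM untreated and 31.9, 10.9 and 14.0 CPM with PAE, so every SKOV3/DDP library exceeded every SKOV3 library.

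The response to PAE in SKOV3/DDP was tested with edgeR's quasi-likelihood test on the counts of all 12 libraries, with Benjamini-Hochberg adjustment over 17133 genes and a call at an adjusted p below 0.05. Of the 10 members, 1 was called higher and 0 lower, against 11.8% of all genes higher and 14.7% lower. At an unadjusted p below 0.05, 3 were higher and 0 lower, and with adjusted p, 6 were higher and 0 lower by limma-voom, and 2 of 8 were higher and 0 lower by DESeq2, which gave no adjusted p for TRIB3 and SESN2. The member called was ASNS, with a log2 fold change of 2.50 ± 0.64 (SE) and an adjusted p of 0.0103. The other 9 had log2 fold changes from −0.25 (SESN2) to 1.37 (PSAT1), with adjusted p from 0.0588 (ATF4) to 1. The count of members called changed with the test, as given above, with the filter and the scaling, and with replicate 2 of the untreated line. With the GC and length trend removed, ASNS and ATF4 (1.23 ± 0.38, adjusted p = 0.0230 by edgeR) were called higher. In that fit 2406 of 15090 genes were higher and 2578 lower. Without replicate 2, 9 members were called higher, where 11.5% of 17830 genes were higher and 12.9% lower in that fit. As that library was the highest untreated one for all 10 members, leaving it out raises their fold changes by construction. This fit is therefore no separate evidence of a response. On this fit ATF4 rose by 1.90 ± 0.23 (log2, SE), DDIT3 by 2.43 ± 0.77, ATF3 by 2.4 ± 0.48, TRIB3 by 3.38 ± 0.40 and CHAC1 by 3.30 ± 0.53. The enzymes rose by 4.06 ± 0.56 for ASNS, 2.82 ± 0.40 for PSAT1 and 1.65 ± 0.27 for PHGDH, and GDF15 rose by 2.45 ± 0.41. Their adjusted p ran from 8.31e-05 for TRIB3 to 0.0333 for DDIT3. SESN2 was at 2.59 ± 0.91 with an adjusted p of 0.0506, and 0 members were lower at an unadjusted p below 0.05. With 3 libraries against 3, an exact permutation test on a single gene cannot go below p = 0.1, so no member could be called by that test, in this comparison or the others.

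**Figure D2:**
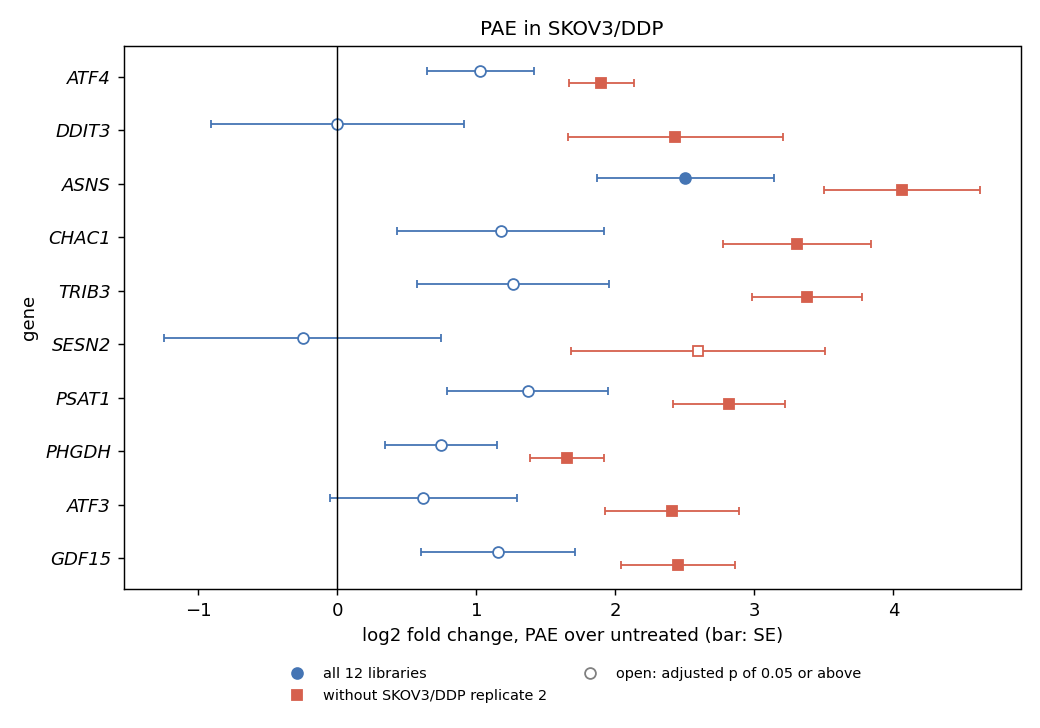
Log2 fold change of each gene with PAE in SKOV3/DDP (x axis, bar: SE), fitted with all 12 libraries (circles) and without untreated SKOV3/DDP replicate 2 (squares); filled symbols have an adjusted p below 0.05. With all libraries 1 of 10 genes is filled, and without replicate 2, 9 of 10 are.

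In SKOV3, PAE moved 6 of the 10 members, 2 higher and 4 lower, against 42.6% of all genes higher and 32.7% lower, so the members' share was not above that of genes at large. DDIT3 rose by 3.22 ± 1.01 (log2, SE; adjusted p = 0.00952) and PSAT1 by 1.58 ± 0.58 (adjusted p = 0.0222). PHGDH fell by 2.48 ± 0.42 on the log2 scale (adjusted p = 7.14e-05), CHAC1 by 1.99 ± 0.76 (0.0270), TRIB3 by 1.61 ± 0.70 (0.0472) and ATF4 by 0.91 ± 0.38 (0.0413). ATF3 (1.46 ± 0.69), ASNS (0.23 ± 0.64), GDF15 (0.20 ± 0.57) and SESN2 (0.05 ± 1.02) were not called, all by edgeR's quasi-likelihood test with adjustment over all genes. The call of DDIT3 rested on SKOV3_PAE replicate 1, without which it was at 1.68 with an adjusted p of 0.112. That library was at least 2-fold above both others of its group for 4 members, DDIT3, CHAC1, SESN2 and GDF15, and for 4.98% of all genes. ATF4 lost its call when any of the 6 SKOV3 libraries was left out (−1.02 to −0.81), TRIB3 when any but SKOV3_PAE replicate 1 was (−1.73 to −1.25), CHAC1 without SKOV3 replicate 3 or SKOV3_PAE replicates 2 or 3 (−1.95 to −1.69), and PSAT1 without SKOV3 replicates 2 or 3 or SKOV3_PAE replicate 3 (1.2 to 1.59). ATF3 gained a call without SKOV3_PAE replicate 3 (1.85, adjusted p = 0.0280).

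These directions also depended on the scaling of the untreated SKOV3 libraries. Over all 17133 genes the middle log2 fold change was 0.48 with TMM and 1.36 with scaling by total counts only, where 3 members were higher (DDIT3 4.08, PSAT1 2.47, ATF3 2.33), 1 was lower (PHGDH −1.60), and ATF4 was at −0.03. Of all genes called, TMM put 7292 higher and 5603 lower, and total counts put 9058 higher and 3834 lower. With the trend on GC content and length removed from each library, 4 members were called, 3 higher and 1 lower, against 28.7% of 15090 genes higher and 21.9% lower. ATF4 then turned to 1.03 ± 0.38 (adjusted p = 0.0351) and GDF15 was at 3.40 ± 0.64 (adjusted p = 0.00062). CHAC1 (0.79 ± 0.76), TRIB3 (0.81 ± 0.73) and PSAT1 (−0.41 ± 0.54) changed sign and were not called. The calls of DDIT3 (3.88 ± 1.05) and PHGDH (−1.99 ± 0.42) held under TMM, total counts and trend removal, DDIT3 with its dependence on 1 library. GC content is 62.6% for CHAC1, 60.9% for TRIB3, 62.9% for GDF15 and 56.7% for ATF4, against a median of 49.0% of genes, and 42.3% for PSAT1.

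**Figure D3:**
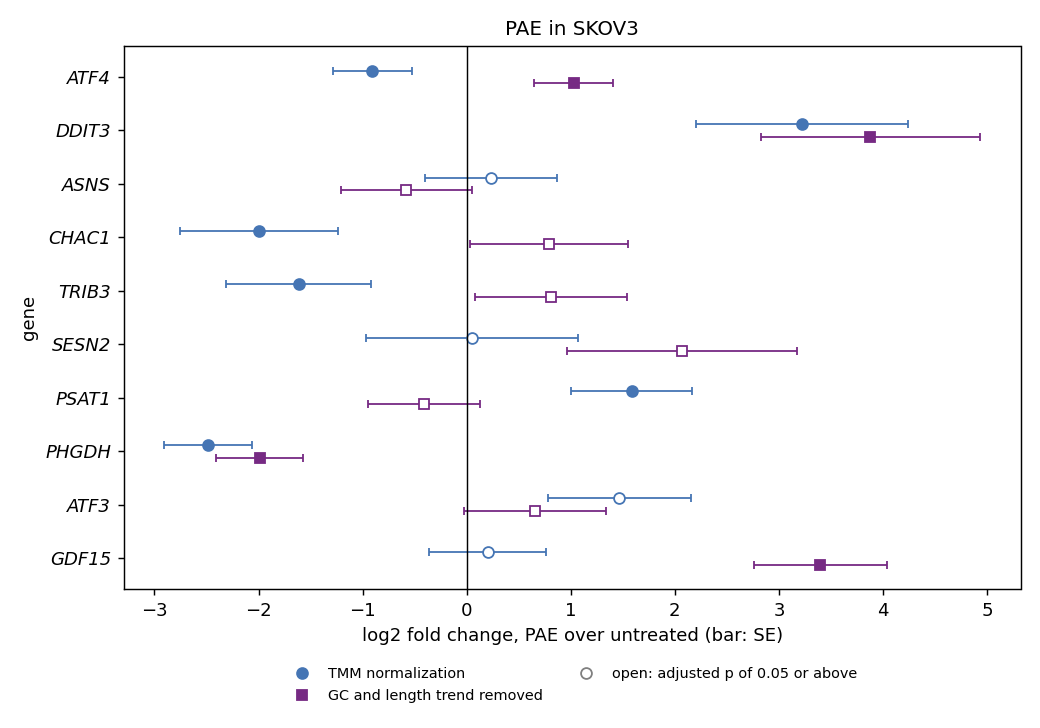
Log2 fold change of each gene with PAE in SKOV3 (x axis, bar: SE), with TMM normalization (circles) and with the GC and length trend of each library removed (squares); filled symbols have an adjusted p below 0.05. DDIT3 is filled to the right and PHGDH to the left in both, and ATF4 moves from −0.91 to 1.03.

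The difference of the PAE effect between the lines, SKOV3/DDP minus SKOV3, was tested as an interaction in the same edgeR fit. It passed for 6 members, 5 of them higher and 1 lower, against 25.5% of all genes higher and 37.4% lower. PHGDH differed by 3.23 ± 0.58 (log2, SE; adjusted p = 0.000179), CHAC1 by 3.17 ± 1.06 (0.0168), TRIB3 by 2.87 ± 0.98 (0.0186), ASNS by 2.27 ± 0.89 (0.0369) and ATF4 by 1.94 ± 0.54 (0.00547). DDIT3 differed in the other direction, by −3.22 ± 1.34 (0.0476). Leaving out SKOV3/DDP replicate 2, the highest of its group for every member, raises these differences by construction. Without that library, DDIT3 was at −0.79 and not called, and CHAC1 (5.29), TRIB3 (4.99) and ASNS (3.82) lay further from 0. PSAT1 (from −0.22 to 1.23) and GDF15 (2.25) were called, and 7 members were higher and 0 lower, against 24.6% of genes higher and 34.7% lower. Calls were also lost for DDIT3 without SKOV3 replicates 1, 2 or 3, SKOV3_PAE replicate 1 or SKOV3/DDP_PAE replicates 1, 2 or 3 (−3.59 to −1.64), and for ASNS without SKOV3 replicates 1 or 3, SKOV3_PAE replicates 2 or 3, SKOV3/DDP replicates 1 or 3 or SKOV3/DDP_PAE replicate 3 (1.85 to 2.33). With the GC and length trend removed, and 19.5% of genes higher and 23.5% lower, 3 members remained called, DDIT3 (−3.82), ASNS (3.13) and PHGDH (2.82), while ATF4 (0.21), CHAC1 (0.67) and TRIB3 (0.75) were not.

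Untreated SKOV3/DDP against untreated SKOV3 gave 1 of the 3 gene sets that the study intersected, before prognostic analysis, to search for genes of chemoresistance. The study took genes at p below 0.05 and an absolute log fold change above 2. Calls below use an adjusted p below 0.05 without a cut on fold change. In edgeR's quasi-likelihood fit of the 6 untreated libraries, 4 members were called, 3 higher in SKOV3/DDP and 1 lower, against 46.1% of 15323 genes higher and 38.5% lower. GDF15 was higher by 5.41 ± 0.74 (log2, SE; adjusted p = 0.000152), DDIT3 by 4.53 ± 1.18 (0.00623) and ATF3 by 2.26 ± 0.79 (0.0255). PHGDH was at −3.31 ± 0.51 (0.000323). The remaining 6 lay between −1.05 (CHAC1) and 1.18 (PSAT1), with adjusted p from 0.115 to 0.716. Leaving out SKOV3/DDP replicate 2 gave 8 calls, 2 higher and 6 lower, against 45.2% of genes higher and 39% lower. As that library was the highest of its group for every member, leaving it out lowers their fold changes by construction. ATF4 (−1.72 ± 0.18), TRIB3 (−2.82 ± 0.16), CHAC1 (−3.17 ± 0.48), ASNS (−1.85 ± 0.51) and SESN2 (−2.31 ± 0.40) then joined PHGDH (−4.20 ± 0.16) as lower in SKOV3/DDP. GDF15 (4.12 ± 0.18) and DDIT3 (2.09 ± 0.55) stayed higher, and ATF3 was at 0.49 with an adjusted p of 0.0569. ATF3 also lost its call without SKOV3 replicates 1, 2 or 3 (2.17 to 2.39), and PSAT1 gained one without SKOV3/DDP replicate 1 (1.63) or 3 (1.62). With the GC and length trend removed and all 6 libraries kept, where 37.4% of genes were higher and 33.2% lower, ATF4 (1.08), CHAC1 (1.57) and TRIB3 (1.46) had the opposite sign without a call, and DDIT3 (5.48), PHGDH (−2.77) and GDF15 (8.45) kept theirs.

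The same contrast under PAE uses neither the untreated SKOV3 libraries nor SKOV3/DDP replicate 2. In edgeR's quasi-likelihood fit of these 6 libraries, 7 members were higher in SKOV3/DDP_PAE and 0 lower (also 0 at an unadjusted p below 0.05, by limma-voom, and by DESeq2, which gave no adjusted p for SESN2), against 26.2% of 15965 genes higher and 29% lower. ATF4 was higher by 1.08 ± 0.24 (log2, SE; adjusted p = 0.00204), ATF3 by 1.42 ± 0.44 (0.0167), TRIB3 by 2.15 ± 0.36 (0.000276) and CHAC1 by 2.12 ± 0.37 (0.000453). ASNS was higher by 1.94 ± 0.40 (0.00147), PSAT1 by 0.95 ± 0.33 (0.0270) and GDF15 by 6.37 ± 0.49 (5.32e-07). DDIT3 was at 1.32 ± 0.62 (0.0880), SESN2 at 0.22 ± 0.77 and PHGDH at −0.08 ± 0.26. Removing the GC and length trend left the count at 7, against 32% of genes higher and 29.5% lower. Without SKOV3_PAE replicate 1, DDIT3 (2.84) and SESN2 (2.49) were called, and PSAT1 lost its call without that library (0.95, adjusted p = 0.0572), SKOV3_PAE replicate 2 (0.62) or SKOV3/DDP_PAE replicates 2 (0.89) or 3 (0.97), as did ATF3 without SKOV3_PAE replicate 2 (1.39). PHGDH, which differed by more than 3 on the log2 scale between the untreated lines, was at 222 ± 74.9 CPM (SD, n = 3) in SKOV3_PAE and 219.6 ± 19.2 CPM in SKOV3/DDP_PAE.

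**Figure D4:**
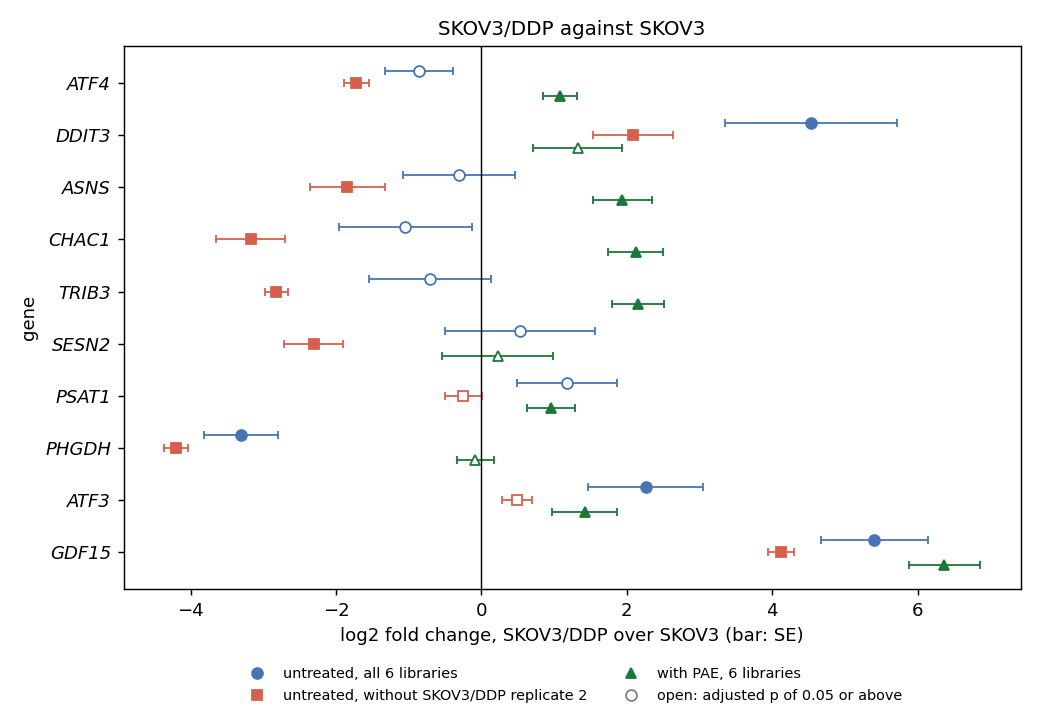
Log2 fold change of SKOV3/DDP over SKOV3 for each gene (x axis, bar: SE), untreated with all 6 libraries (circles), untreated without SKOV3/DDP replicate 2 (squares) and with PAE (triangles); filled symbols have an adjusted p below 0.05. ATF4, ASNS, CHAC1 and TRIB3 are filled to the left for the squares and to the right for the triangles, and GDF15 is filled to the right for all 3.

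Other genes of the pathway and of neighbouring stress responses were counted in lists chosen with earlier results of these data known. SKOV3/DDP replicate 2 was at least 2-fold above replicates 1 and 3 for 8 of 10 amino acid transporters tested, 7 of 18 enzymes of amino acid and one-carbon synthesis, 8 of 19 cytosolic aminoacyl-tRNA synthetases and 12 of 27 ATF4 partners and further stress targets. It was so for 10 of 12 ER chaperones and genes of the XBP1 arm and for 8 of 12 immediate early genes. A list of eIF2 subunits, eIF2B subunits, eIF2 kinases, phosphatase subunits and other regulators is called genes acting on eIF2 below. For that list replicate 2 was so for 3 of 19, EIF2AK3, PPP1R15A and the eIF2 subunit gene EIF2S2. High mRNA in this library thus extended beyond ATF4 targets, to the chaperones HSPA5 and HSP90B1 and to FOS, JUN and EGR1.

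**Figure D5:**
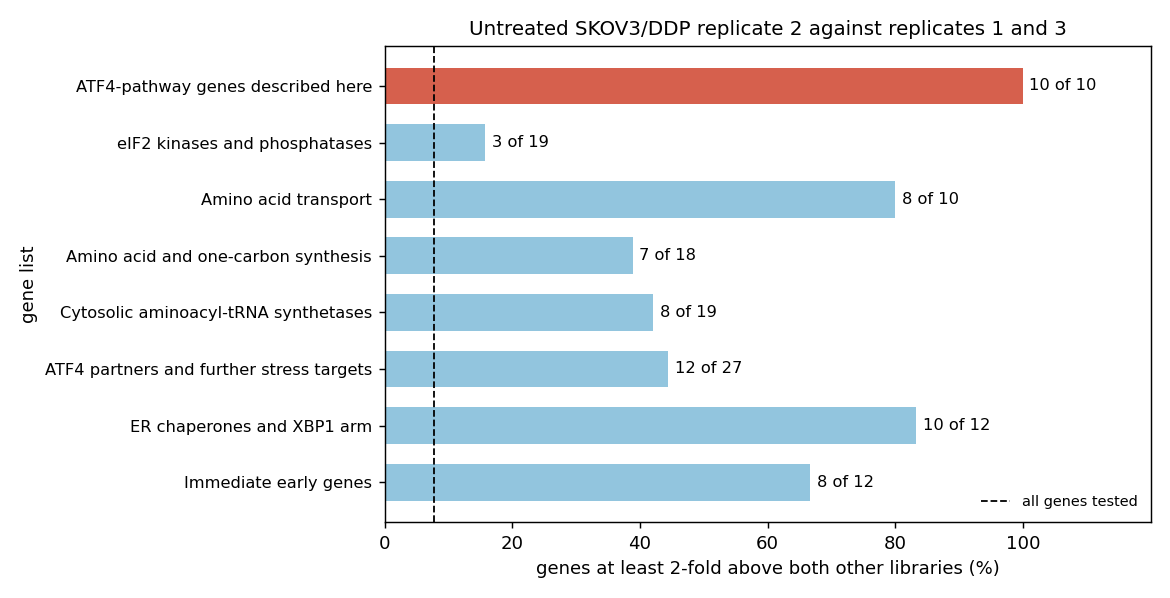
Percent of the genes of each list (x axis) at least 2-fold higher in untreated SKOV3/DDP replicate 2 than in both replicates 1 and 3, with the counts beside the bars and the 7.69% of all genes as a dashed line. All 10 of the genes described here pass, followed by 10 of 12 ER chaperones and XBP1 arm genes and 8 of 10 amino acid transporters. In the list labelled eIF2 kinases and phosphatases, which also holds eIF2 and eIF2B subunits, 3 of 19 do.

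With PAE in SKOV3/DDP, 2 of 10 transporters were higher and 1 lower with all libraries, by edgeR's test over all genes, of which 11.8% were higher and 14.7% lower. Without replicate 2, which was at least 2-fold above both others for 8 of these 10, 9 were higher and 0 lower. Their median log2 fold change was then 2.02 against 0.01 for all genes. SLC3A2, the heavy chain that carries several amino acid exchangers to the membrane, was at 1.91 and at 3.18 without replicate 2, and SLC7A11, the cystine importer, was called without it (2.69 ± 0.41) and not with it. Among ATF4 partners and further targets, 8 of 27 were higher and 0 lower with all libraries (median 0.99 against 0 for all genes), among them SESN1, a sestrin, at 1.63 ± 0.27 and mean levels of 22.6 CPM untreated and 70.3 CPM with PAE. STC2, a secreted glycoprotein, was also called, but averaged 0.433 CPM with PAE and 0.0204 CPM untreated in this line, so its fold change is not given. Without replicate 2 the count was 18 higher and 1 lower, with NUPR1, a small stress-induced chromatin protein, at 3.87 ± 0.57 from a low level (4.01 CPM with PAE) and DDIT4, an inhibitor of mTORC1, at 2.96 ± 0.43. Replicate 2 was at least 2-fold above both others for SLC3A2, SLC7A11, NUPR1 and DDIT4. Leaving it out raises their fold changes by construction.

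Against 11.8% of all genes higher and 14.7% lower, and 11.5% and 12.9% without replicate 2, synthesis enzymes went from 2 higher and 3 lower of 18 to 6 higher and 2 lower without that library, among them GPT2 (1.94), GOT1 (1.84), MTHFD2 (1.71) and PSPH (1.5). With all libraries their share was near that of all genes. Aminoacyl-tRNA synthetases went from 2 higher and 1 lower of 19 to 6 higher and 1 lower, with GARS1 at 1.95 and YARS1 at 1.93. ER chaperones and XBP1 arm genes went from 0 higher and 2 lower of 12 (CRELD2 −1.74, PDIA4 −1.55) to 3 higher and 0 lower. Immediate early genes went from 0 higher and 1 lower of 12 to 1 higher and 1 lower. Among 19 genes acting on eIF2, 1 was higher and 3 lower with all libraries, and 3 were higher and 3 lower without replicate 2, when PPP1R15A, the stress-induced eIF2 phosphatase subunit, was at 2.45 ± 0.63. Replicate 2 was at least 2-fold above both others for GPT2, GOT1, MTHFD2, PSPH, GARS1, YARS1 and PPP1R15A. Leaving it out raises their fold changes by construction, so these gains are no separate evidence of a response.

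In the contrast of the lines under PAE, where 26.2% of all genes were higher and 29% lower, transporters were 5 higher and 2 lower of 10 (median 0.56 against −0.01 for all genes), further targets 11 higher and 8 lower of 27, synthesis enzymes 5 and 5 of 17, synthetases 5 and 4 of 19, ER genes 3 and 0 of 12, immediate early genes 1 and 2 of 12, and genes acting on eIF2 4 and 5 of 19. SLC7A1, a cationic amino acid transporter, was higher in SKOV3/DDP_PAE by 2.23 ± 0.29, and STC2 averaged 314 CPM in SKOV3_PAE against 0.433 CPM in SKOV3/DDP_PAE. The further targets therefore did not share 1 direction between the lines.

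In SKOV3, where 42.6% of all genes were higher with PAE and 32.7% lower, genes acting on eIF2 were 13 higher and 4 lower of 19, with EIF2AK2, the kinase PKR, at 3.52 ± 0.31. Synthetases were 10 higher and 3 lower of 19, ER genes 6 and 3 of 12, immediate early genes 6 and 2 of 12, further targets 9 and 10 of 27, transporters 3 and 4 of 10 and synthesis enzymes 5 and 7 of 18. These counts depended on the GC and length trend, with 28.7% of genes higher and 21.9% lower once it was removed. Genes acting on eIF2 then went to 8 higher and 5 lower, their median from 2.35 to 0.44, ER genes to 0 and 2, synthetases to 7 and 3 and further targets to 3 and 5. Immediate early genes went to 10 higher and 0 lower, synthesis enzymes to 2 and 4, and transporters to 4 and 1 with a median that turned from −0.67 to 0.61.

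In the interaction, where 25.5% of all genes were higher and 37.4% lower, transporters were 4 higher and 3 lower of 10, synthesis enzymes 8 and 6 of 18, synthetases 5 and 9 of 19, further targets 9 and 7 of 27, ER genes 0 and 5 of 12, immediate early genes 1 and 5 of 12 and genes acting on eIF2 3 and 13 of 19. With the trend removed, and 19.5% of genes higher and 23.5% lower, the counts were 1 and 1, 4 and 3, 2 and 4, 9 and 2, 1 and 2, 0 and 9, and 5 and 7 in the same order. Immediate early genes thus had more lower than higher members in both fits, and transporters had as many of each once the trend was removed. In untreated SKOV3/DDP against SKOV3, where 46.1% of genes were higher and 38.5% lower, the counts were 4 and 4 of 10, 3 and 8 of 17, 12 and 5 of 19, 8 and 10 of 25, 7 and 0 of 12, 5 and 4 of 12, and 14 and 4 of 19 in that order. With the trend removed, and 37.4% higher and 33.2% lower, they were 3 and 2, 4 and 6, 7 and 4, 6 and 5, 8 and 1, 8 and 1, and 11 and 6. No list's share was tested against that of all genes in these comparisons.

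Genes that varied with the members inside groups were ranked among 9944 genes with a mean of at least 10 CPM, by the correlation of log2 deviations from the group mean over 12 libraries with the mean deviation of the members. These 12 points share libraries with the members and extend farthest for SKOV3/DDP replicate 2, whose mean member deviation was 1.98 against −1.25 to 0.83 in the other libraries. CEBPG, a C/EBP protein that pairs with ATF4, came first (r = 0.981), then BTG1 (0.979), UPP1 (0.977), TRA2B (0.970), NIT1 (0.969), ISOC2 (0.969), KCNG1 (0.968) and RAD9A (0.967). CEBPG was at 49.0, 216 and 53.9 CPM in untreated SKOV3/DDP and at 225, 231 and 228 CPM with PAE, with replicate 2 just under the PAE libraries. UPP1, uridine phosphorylase, was at 25.7, 235 and 26.5 CPM and at 202, 204 and 160.1 CPM with PAE, with replicate 2 above them. Replicate 2 was also above all PAE libraries for TRA2B (261 CPM against 166 to 176), NIT1 (109.7 against 32.9 to 44.3), ISOC2 (80.0 against 20.8 to 25.9) and RAD9A (44.1 against 20.7 to 27.9), and below them for BTG1 (280.1 against 305 to 370). KCNG1 was at or near 0 CPM in SKOV3/DDP, so its rank says little about that line. Over the 9 libraries other than untreated SKOV3/DDP the correlations of these 8 genes were 0.827 to 0.917. The genes had been picked with those 9 libraries included, so this is no separate check. In the same 9, the members ASNS (0.183), PHGDH (0.224) and PSAT1 (0.258) hardly followed the mean they are part of, and the other members were at 0.666 to 0.930. Without centring on groups the first 3 genes were GOT1, a transaminase (0.979), BTG1 (0.942) and SRXN1 (0.921).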

How the data were processed

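The authors deposited 1 table of raw counts per gene for each of 12 libraries, built from mRNA of cultured cells. The submitters' processing notes name HISAT2 2.0.5, StringTie 1.3.3b, DESeq2 and edgeR without roles. The genome build, the counting tool and its strand setting are not given in the sources used here. Of 47219 entries, 869 without a gene name (0.126% to 0.678% of counts) were left out. Groups and replicate numbers came from the sample titles. Counts were tested with edgeR 4.0.16 in R 4.3.3 (filterByExpr, TMM, quasi-likelihood test), in 1 fit of 12 libraries for PAE and in fits of 6 libraries between the lines, with log2 fold changes, their SE and an adjusted p threshold of 0.05. CPM use the TMM factors of the 12-library fit, except those of MIEF1, ATF4P3, MARS1 and CZ1P-ASNS, which are scaled by total counts only. The code was tested on simulated data. Alternatives were DESeq2 1.42.0, limma-voom (limma 3.58.1), total counts only, no filter, a minimum of 10 counts in each library of a fit, a block by replicate number, removal of a spline trend (5 degrees of freedom, mean log2 CPM of at least 2) on GC content and length from GENCODE v29 transcripts, other libraries in the fit and leaving out each library. Replicates differed by more than sampling noise (chi-square per degree of freedom 15.0 to 89.7). The members and lists were chosen with earlier results of these data known. All members are named, with at most 4 genes per list and comparison by size of change, the 8 genes most alike, the first 3 without centring, and genes of a list counted above for 1 library. Low counts limit the precision of ASNS and SESN2.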

Additional observations from a re-analysis of the deposited data

Results flagged for a closer look

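The effect of PAE differed between the lines by the interaction test for 6 of the 10 genes, against 25.5% of all genes higher and 37.4% lower, so the share of the 10 was near that of genes at large. The log2 difference, SKOV3/DDP minus SKOV3, was 1.94 for ATF4, where the effect was −0.91 in SKOV3 and 1.03 in SKOV3/DDP. It was 3.17 for CHAC1 (−1.99 and 1.17), 2.87 for TRIB3 (−1.61 and 1.26), 3.23 for PHGDH (−2.48 and 0.75) and 2.27 for ASNS (0.23 and 2.50). It was −3.22 for DDIT3 (3.22 and 0.00), and without untreated SKOV3/DDP replicate 2 it was −0.79 with an adjusted p of 0.504 by edgeR. With the GC and length trend removed the difference was no longer called for ATF4 (0.21, adjusted p = 0.798), CHAC1 (0.67, 0.656) and TRIB3 (0.75, 0.597), and the effects in SKOV3 turned to 1.03, 0.79 and 0.81 in the same order. PHGDH (2.82), ASNS (3.13) and DDIT3 (−3.82) kept their calls.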

How the results depend on the processing

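The count of members called with PAE in SKOV3/DDP, 1 with edgeR, was 2 of 8 with DESeq2, 6 with limma-voom, 3 with total counts only, 7 with no filter, 0 with at least 10 counts in every library and 2 with the GC and length trend removed, and 1 to 9 when 1 library was left out. With the minimum of 10 counts ASNS was not tested, and of the 9 members left 2 were higher at an unadjusted p below 0.05. The count for PAE in SKOV3 ran from 2 to 4 when 1 library was left out, for the interaction from 4 to 7, for the untreated lines from 3 to 8 and for the lines with PAE from 5 to 8. Trend removal left 3 calls of the interaction. Where at least 1 of the fits had a call, direction turned with trend removal for PAE in SKOV3 in ATF4 (1.03), CHAC1 (0.79), TRIB3 (0.81) and PSAT1 (−0.41), and without SKOV3/DDP replicate 2 for PSAT1 in the interaction (range on leaving out 1 library −0.60 to 1.23) and SESN2 between the untreated lines (−2.31 to 1.07). Trend removal together with leaving out that library, chosen after seeing the data, gave 7 calls between the untreated lines and turned ATF4 (0.40) and PSAT1 (−1.74). With a call in neither fit, signs also changed without SKOV3/DDP replicate 2 for PSAT1 between the untreated lines (−0.25), for SESN2 with PAE in SKOV3/DDP (2.59) and in the interaction (2.54) and for ATF3 in the interaction (0.94). With trend removal they changed for GDF15 (−1.97), PSAT1 (1.76) and ATF3 (0.01) in the interaction, ASNS with PAE in SKOV3 (−0.58) and ATF4 (1.08), CHAC1 (1.57), TRIB3 (1.46) and PSAT1 (−0.49) between the untreated lines. Of 745 member values under alternatives, 579 kept direction and side of the threshold, 61 lost a call, 50 gained one, 47 changed sign with a call in neither fit and 8 turned with a call in at least 1. Total counts only also shifted the split of all genes called, with PAE in SKOV3/DDP from 2014 higher and 2512 lower to 2889 and 1913, and in the interaction from 4374 and 6404 to 3088 and 7808. Causes beyond the library left out were not tested.

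Replicate numbers did not pair the libraries, with correlations of same-numbered deviations of −0.171 to 0.117. With the replicate block, calls were 5 for PAE in SKOV3, 2 for PAE in SKOV3/DDP, 5 for the interaction, 5 for the untreated lines and 8 for the lines with PAE, against 74.1%, 23.3%, 61.4%, 82.9% and 52.6% of all genes in these fits.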
